A study of Caenorhabditis elegans with 4 samples.

Results

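The genes described here are the 6 furrow collagen genes of Caenorhabditis elegans, dpy-2, dpy-3, dpy-7, dpy-8, dpy-9 and dpy-10, chosen by name from the authors' deposited table. The table held 5 of the 6 among its 16562 loci, and dpy-3 was not analysed here. RNA came from whole wild-type (WT) worms labelled as L4, the last larval stage before adulthood, fed E. coli OP50 on plates at 20 °C. In 2 samples, here called control, the agent was given as control. In the other 2, here called NO, worms had received 1 mM MAHMA NONOate, a donor that releases nitric oxide (NO), with 4 h of recovery at 20 °C. All 4 samples carry the same treatment text, so how the controls were handled is not known, and NO cannot be told apart from the donor compound or from handling. The question set by the series is how transcripts of worms given NO compare with those of worms that were not. The authors had combined the 2 libraries of a condition, so there is 1 level per gene and condition, taken as FPKM (sequenced fragments scaled by transcript length and library size), and neither the spread between libraries nor their depth is known. Nothing in the labels says that the 2 samples came from separate cultures, so the deposited p-values may reflect technical spread.

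The worm cuticle is a collagen coat made by the epidermis and renewed at each molt. Circular furrows run around the body between raised annuli, and the 6 collagens are needed together for the furrows to form. Loss of any one of them leaves a short, fat (dumpy) animal without furrows. Loss is also known to switch on a set of protective genes in the underlying tissue: glycerol synthesis genes such as gpdh-1, detoxification genes such as gst-4, and antimicrobial peptide genes such as nlp-29. Furrow collagen genes are known to be transcribed in a wave early in each molting cycle, before most other body shape collagens. The comparison therefore placed the collagen transcripts beside those of the genes known to respond when the furrows are lost.

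Furrow collagen transcripts were scarce in both conditions, and none passed the test after NO. The 5 loci lay between 0.691 and 2.24 FPKM in control and between 1.17 and 2.19 FPKM in NO in the authors' deposited table. In the deposited test, 0 of 5 had an adjusted p under 0.05, against 0.399% of all loci (0.386% higher, 0.0121% lower), and 0 of 5 had an unadjusted p below 0.05, against 3.09% of all loci (2.75% higher, 0.338% lower). With background shares this low, a count of 0 of 5 says nothing particular about these genes. Of the 5 loci, 3 had a higher value in NO and 2 a lower one. The median log2 ratio, (NO + 1) over (control + 1) in FPKM, was 0.01 over the 4 loci that averaged 1 FPKM or more. Over all 14285 loci at that level it was -0.03.

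In the deposited table dpy-9, on chromosome IV, had the highest control level of the set, 2.24 FPKM, and 2.05 FPKM in NO. Its log2 fold was -0.12 with a standard error (SE) of 0.82, where the SE is the one implied by the deposited fold and test statistic, and the deposited unadjusted p was 0.879. For dpy-8, on chromosome X, the deposited control level was 2.10 FPKM and the NO level 2.19 FPKM, with a log2 fold of 0.06 (SE 0.60, unadjusted p = 0.914). These 2 genes changed places in the order of levels between conditions, with log2 folds far smaller than their SEs.

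The gene dpy-10, widely used as a marker for genome editing because its mutants are visible, had deposited levels of 1.45 FPKM in control and 1.54 FPKM in NO. Its log2 fold was 0.09 (SE 0.80, unadjusted p = 0.913). Its close neighbour on chromosome II, dpy-2, stood at 1.21 and 1.18 FPKM in the deposited table, with a log2 fold of -0.03 (SE 0.71, unadjusted p = 0.965). The order dpy-10 above dpy-2 was the same in both conditions, though whether their levels differ beyond the spread between libraries cannot be told from combined values.

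Of the 5 loci, the one with dpy-7 had the lowest level in each condition, and it does not measure dpy-7 alone. The authors' annotation joined dpy-7 with glb-16, the globin gene next to it on chromosome X, and reads of the 2 genes cannot be separated. The joined locus stood at 0.691 FPKM in control and 1.17 FPKM in NO in the deposited table. That is a 1.69-fold difference, or a log2 fold of 0.75, with the widest error of the set (SE 0.99, unadjusted p = 0.446). With a mean of 0.929 FPKM it was the 1 member locus below the minimum of 1 FPKM. All 5 loci had a deposited adjusted p of 0.99994.

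**Figure D1:**
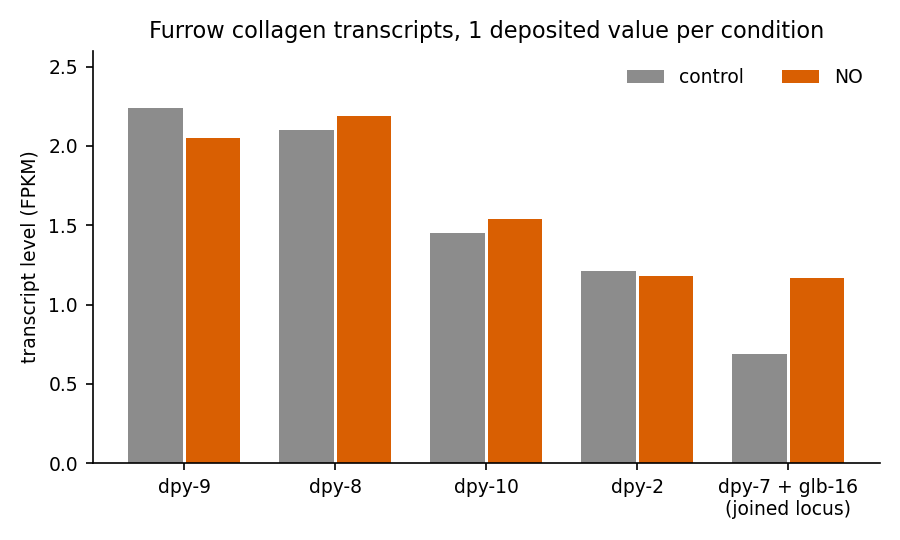
Transcript level in FPKM (vertical axis) of the 5 furrow collagen loci in control (grey) and NO (orange), 1 deposited value per condition and therefore no error bars. The single-gene loci have nearly equal bars, and the joined dpy-7 and glb-16 locus has 0.691 and 1.17 FPKM.

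How large a change could have been missed follows from the same errors. The 95% interval of the fold, NO over control, ran from 0.461 to 2.38 for dpy-8, from 0.375 to 2.56 for dpy-2 and from 0.3 to 2.81 for dpy-9. It ran from 0.356 to 3.17 for dpy-10 and from 0.439 to 6.49 for the joined dpy-7 locus. Every interval therefore holds changes of 2-fold in either direction. At these errors a call would have needed an estimated rise of at least 4.8-fold for dpy-8, 6.26-fold for dpy-2, 8.08-fold for dpy-10, 8.49-fold for dpy-9 and 13.1-fold for the joined locus. Each figure uses the smallest test statistic among called loci, 3.75 in size. Modest changes in the furrow collagens were not detectable in these data.

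The other collagens that shape the body had higher values after NO more often than not. The list held 15 genes, of which 11 were in the table, and 10 of the 11 had a higher value in NO. The median log2 ratio was 1.26 over the 10 averaging 1 FPKM or more, of which 9 were above 0. Of the 11, 1 rose by the deposited test and 6 had an unadjusted p below 0.05, all 6 higher. The shares of all loci that were higher under these rules were 0.386% and 2.75%.

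The called gene was dpy-5, a cuticle collagen gene whose mutants are dumpy, at 35.4 FPKM in control and 106 FPKM in NO by the deposited table (log2 change 1.58, SE 0.40, adjusted p = 0.0239). A second dumpy collagen gene, dpy-13, stood at 29.8 and 83.0 FPKM (log2 change 1.48, SE 0.41, adjusted p = 0.068), and dpy-4 at 25.2 and 67.5 FPKM (adjusted p = 0.152), again deposited values. Both missed the threshold with nearly the same fold as dpy-5. For sqt-3, whose product is needed for normal body form, the deposited levels were 9.36 and 20.5 FPKM (log2 change 1.13, SE 0.51, unadjusted p = 0.0272).

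Among less abundant collagens, sqt-1 and rol-6 had folds of like size to that of dpy-5. In the deposited table sqt-1 had 4.47 FPKM in control and 12.9 FPKM in NO (log2 change 1.53, SE 0.67, unadjusted p = 0.0223). The values for rol-6, which interacts genetically with sqt-1, were 2.55 and 7.88 FPKM (log2 change 1.62, SE 0.70, unadjusted p = 0.0203). The control level of rol-6 was close to those of dpy-8 and dpy-9, and its implied error lay between theirs, while its deposited level in NO was 7.88 FPKM against 2.19 and 2.05 FPKM. The 95% interval of the log2 fold of rol-6, 0.25 to 3.0, overlapped those of dpy-8, -1.12 to 1.25, and dpy-9, -1.74 to 1.49. Whether the folds differ between these genes was not tested.

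The remaining members of that list gave little information. rol-8 had deposited levels of 3.27 and 8.81 FPKM (SE 1.04, unadjusted p = 0.17). The blister gene bli-1, at 0.249 and 0.888 FPKM, and lon-3, at 1.89 and 3.78 FPKM, had deposited log2 folds with implied SEs of 12.37 and 3.25, too wide to place them. The gene dpy-17, a dumpy collagen, stood at 1.95 and 2.15 FPKM by the deposited table (log2 change 0.15, SE 0.75), a pair of values much like those of dpy-8. The 1 lower value belonged to the locus of sqt-2, a squat gene, at 28.1 and 22.7 FPKM (log2 change -0.31, SE 0.42). That locus is joined with C01B12.8, so the level of sqt-2 alone is not known. The genes dpy-14, bli-2, bli-6 and ram-4 were not analysed here.

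**Figure D2:**
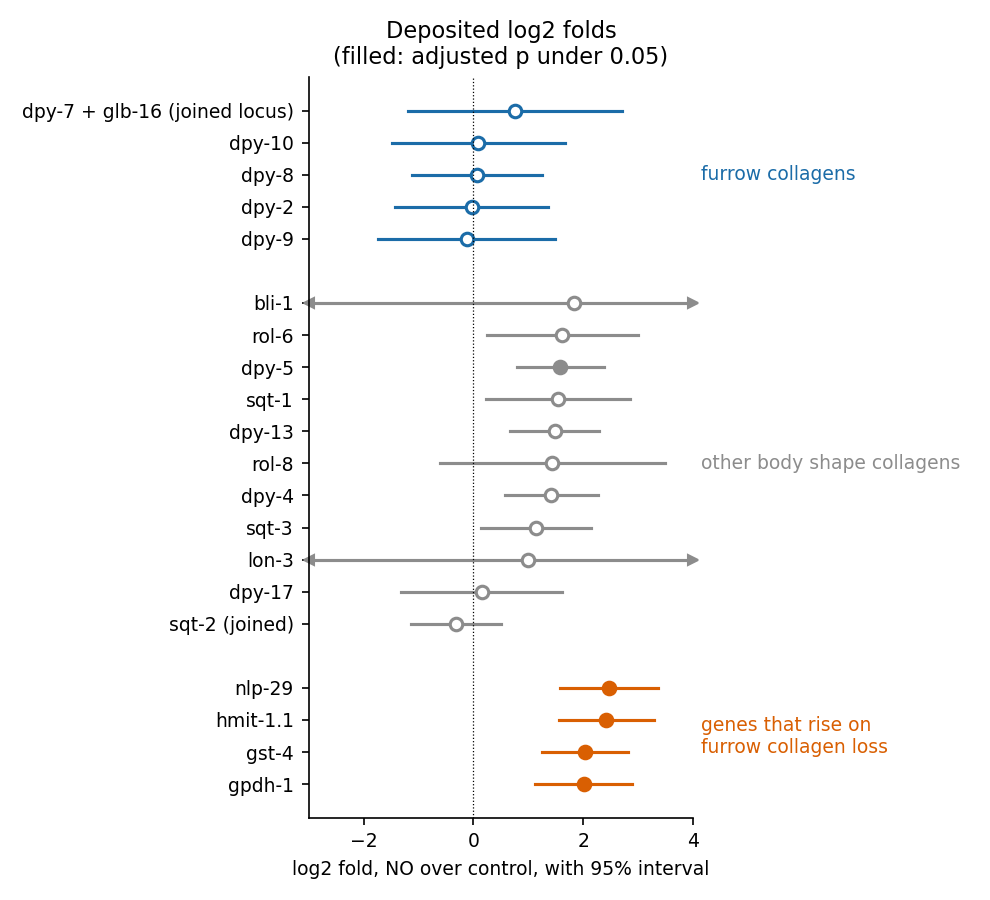
Deposited log2 fold of NO over control (horizontal axis) with its 95% interval from the implied SE, for the 5 furrow collagen loci (blue), 11 other body shape collagens (grey) and 4 genes known to rise when furrow collagens are lost (orange). Filled points have an adjusted p under 0.05, and arrowheads mark intervals that run past the axis (bli-1 and lon-3). Every blue interval crosses 0 and none of the 4 orange intervals does, but the orange genes were picked with earlier results known. The SEs of the orange genes, 0.40 to 0.45, were also smaller than those of the blue loci, 0.60 to 0.99.

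Against all collagens, the furrow genes sat at the low end of the range of levels. The table held 141 collagen loci when furrow, other body shape and numbered col genes were pooled, with a median of 29.8 FPKM in control and 62.4 FPKM in NO. Counted from the lowest control level, the joined dpy-7 locus ranked 13, dpy-2 21, dpy-10 22, dpy-8 32 and dpy-9 34 of 141. In NO the ranks were 15, 16, 20, 25 and 22. Among all 16562 loci, between 12.6% and 27.5% had a lower control level than these 5. Of the 136 other collagen loci, 100 had a higher value in NO and 75 were more than 1.5 times their control value, as was the joined dpy-7 locus but no furrow gene with a locus of its own. These counts do not describe the total, since the levels of the 125 col genes summed to 51818 FPKM in control and 48618 FPKM in NO. Of the 125, 90 had a higher and 35 a lower value in NO. The most abundant, col-124, was among the lower ones, at 4248 and 3254 FPKM in the deposited table. The 125 col genes included 6 that rose and 1 that fell by the deposited test, against 0.386% and 0.0121% of all loci, with a median log2 ratio of 0.56 over the 113 averaging 1 FPKM or more. Those that rose were col-14, col-73, col-97, col-104, col-109 and col-138, from 9.39 to 58.6 FPKM in control, all at least 4 times the control level of dpy-9, and col-135 fell. Many col genes have close copies, so their reads may have been shared between them.

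Other collagens of like level were mixed in direction. In the range of means spanned by the furrow loci, 0.929 to 2.15 FPKM, there were 10 other collagens, of which 6 had a higher and 4 a lower value in NO, with a median deposited log2 fold of 0.11 and 0 calls. They included col-174, at 0.917 and 2.07 FPKM, col-177, at 1.48 and 2.32 FPKM, and col-43, at 2.10 and 1.12 FPKM, in the deposited table. All 1719 loci in that range with values above 0 had a median deposited log2 fold of 0.14, with quartiles at -0.24 and 0.65, and 1 call, or 0.0582%. The deposited log2 folds of the 4 single-gene furrow loci, -0.12 to 0.09, lay between those quartiles, and that of the joined locus, 0.75, just above them. In fold, the furrow collagens thus lay among other transcripts of like level.

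**Figure D3:**
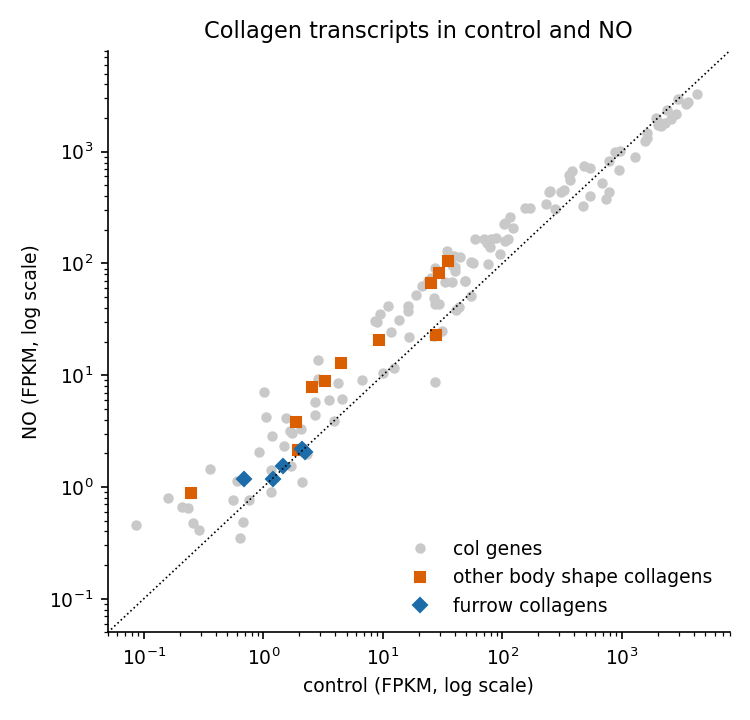
Deposited level in NO (vertical) against control (horizontal), both in FPKM on log axes, for 125 col genes (grey circles), 11 other body shape collagens (orange squares) and 5 furrow collagen loci (blue diamonds), with equal levels on the dotted line. Furrow collagens lie at 0.691 to 2.24 FPKM in control, with 3 of the 5 loci above the line. Of the 136 other collagens, 100 lie above it, and of the 10 with means in the furrow range, 0.929 to 2.15 FPKM, 6 do.

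By level alone, the 5 single-gene loci nearest to the mean point of the furrow loci, by distance in log2(FPKM + 1) over the 2 conditions, were ser-5, cutl-3, F40A3.7, twk-30 and math-43. Their distances ran from 0.0170 to 0.0193. Their deposited levels were 1.44 to 1.47 FPKM in control and 1.56 to 1.62 FPKM in NO, and 67 loci lay within a distance of 0.1. With only 2 conditions such likeness says that the levels match and no more.

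While the furrow collagen transcripts gave no call, 4 genes known as readouts of furrow loss had higher values after NO. These 4, gpdh-1, hmit-1.1, gst-4 and nlp-29, were picked with earlier results of these data known, so that all 4 passed the deposited test is a description and no support for a response to furrow loss. In the 3 lists that hold them, 5 of 39 loci were called, and 4 of those 5 are the picked genes. The first, gpdh-1, encodes the glycerol 3-phosphate dehydrogenase that makes glycerol under osmotic stress. It rose from 13.5 to 54.3 FPKM by the deposited table (log2 change 2.01, SE 0.45, adjusted p = 0.00436). The inositol transporter gene hmit-1.1, also an osmotic stress gene, rose from 5.85 to 31.1 FPKM (log2 change 2.41, SE 0.44, adjusted p = 4.35e-05) in the deposited table. The glutathione S-transferase gene gst-4 went from 32.99 to 134.9 FPKM and the epidermal peptide gene nlp-29 from 58.9 to 325 FPKM, folds of 4.09 and 5.52 by the deposited table (adjusted p = 0.000375 and 5.1e-05). Each of these genes also answers to other stresses, and none of the values bears on whether furrows were intact.

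In the glycerol and detoxification lists around these reporters, every called gene was a picked reporter, so the counts of calls cannot be read either way. For the lists that follow, 0.386% of all loci rose and 0.0121% fell by the deposited test, and 2.75% were higher at an unadjusted p below 0.05. Of 12 glycerol and osmotic response genes in the table, 2 rose and 0 fell, namely gpdh-1 and hmit-1.1, and the median log2 ratio was 0.33. osm-7, which encodes a secreted protein whose loss switches on glycerol production, had deposited levels of 13.2 and 21.3 FPKM, and the Patched-related gene ptr-23 had 12.8 and 18.2 FPKM. Neither passed the test. Of 15 SKN-1 and phase 2 detoxification genes, 1 rose, gst-4, and 4 were higher at an unadjusted p below 0.05, with a median log2 ratio of 0.22 over the 13 averaging 1 FPKM or more. gst-30, at 3.47 and 17.5 FPKM in the deposited table, narrowly missed the threshold (adjusted p = 0.0525). sdz-8 had 2.93 and 12.8 FPKM (adjusted p = 0.124) and gst-38 5.72 and 15.5 FPKM (adjusted p = 0.728).

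Epidermal antimicrobial peptides of the nlp-29 and caenacin groups gave 12 loci, of which 2 rose, 0 fell and 5 were higher at an unadjusted p below 0.05. Their median log2 ratio was 1.88 over 11 loci, 0.97 over the 7 averaging 10 FPKM or more and 1.42 with no minimum. cnc-4, a caenacin gene, rose from 1.69 to 48.4 FPKM by the deposited table (log2 change 4.84, SE 0.90, adjusted p = 6.01e-05), so a control level within the range of the furrow collagens did not prevent a call when the fold was large. nlp-34, at 5.60 and 35.4 FPKM (adjusted p = 0.268), and cnc-2, at 0.269 and 4.32 FPKM (unadjusted p = 0.0375), were not called. For the signalling genes that connect cuticle damage to nlp-29, 0 of 18 loci passed at an adjusted p or at an unadjusted p below 0.05 by the deposited test, and the median log2 ratio was 0.02. They included the receptor gene dcar-1, listed under its sequence name C06H5.7, at 29.1 and 37.05 FPKM, and cebp-1, listed as D1005.3, at 8.75 and 14.5 FPKM. The adaptor gene tir-1 stood at 8.25 and 11.8 FPKM in the deposited table, with an implied SE of 23.68 that makes its fold meaningless.

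Genes that modify, secrete or switch on cuticle collagens were in 2 lists, and with 0.399% of all loci called, a count of 0 in lists of this size says nothing particular about them. Of 18 loci for collagen processing, crosslinking and secretion, 0 passed at an adjusted p or at an unadjusted p below 0.05, and the median log2 ratio was 0.11. dpy-18, a prolyl 4-hydroxylase subunit that modifies collagen chains, had 16.7 and 23.1 FPKM by the deposited table (log2 change 0.47, SE 0.38), and the peroxidase gene mlt-7 had 25.3 and 33.1 FPKM (SE 0.74). nas-7, an astacin protease gene, stood at 9.81 and 16.2 FPKM, and bli-5, a protease inhibitor gene, at 1.34 and 3.59 FPKM with an SE of 3.93. Epidermal regulators gave 0 calls in 13 loci and 0 at an unadjusted p below 0.05, and their median was 0.04, or -0.17 over the 5 averaging 10 FPKM or more. Among them blmp-1, a zinc finger gene of the molting timer, had 5.87 and 6.82 FPKM and the homeobox gene ceh-60 16.1 and 19.6 FPKM. Joined loci held lin-26, at 117 and 104 FPKM, and egl-18, at 17.5 and 10.99 FPKM.

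Molting cycle genes were also at low levels. Their 22 loci had a median of 1.83 FPKM in control and 2.23 FPKM in NO, with 0 calls, against 0.399% of all loci. Of the 22, 2 were higher at an unadjusted p below 0.05, against 2.75% of all loci, and 18 had a higher value in NO. Of the 1719 loci with values above 0 and means of 0.929 to 2.15 FPKM, 1028 were also higher in NO. The median log2 ratio of the molting list was 0.29 over the 17 averaging 1 FPKM or more. The 1 locus averaging 10 FPKM or more, nas-37, had a ratio of -0.35 (deposited log2 fold -0.36, SE 0.37). With 1 locus at that level, whether direction in the list depends on level cannot be told. mlt-8 had 5.19 and 13.96 FPKM by the deposited table (unadjusted p = 0.0482), and mlt-10 had 2.36 and 3.77 FPKM. nas-36, a protease gene needed to shed the old cuticle, had 2.01 and 3.93 FPKM, and lin-42, a period-like timing gene, 3.44 and 5.45 FPKM.

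**Figure D4:**
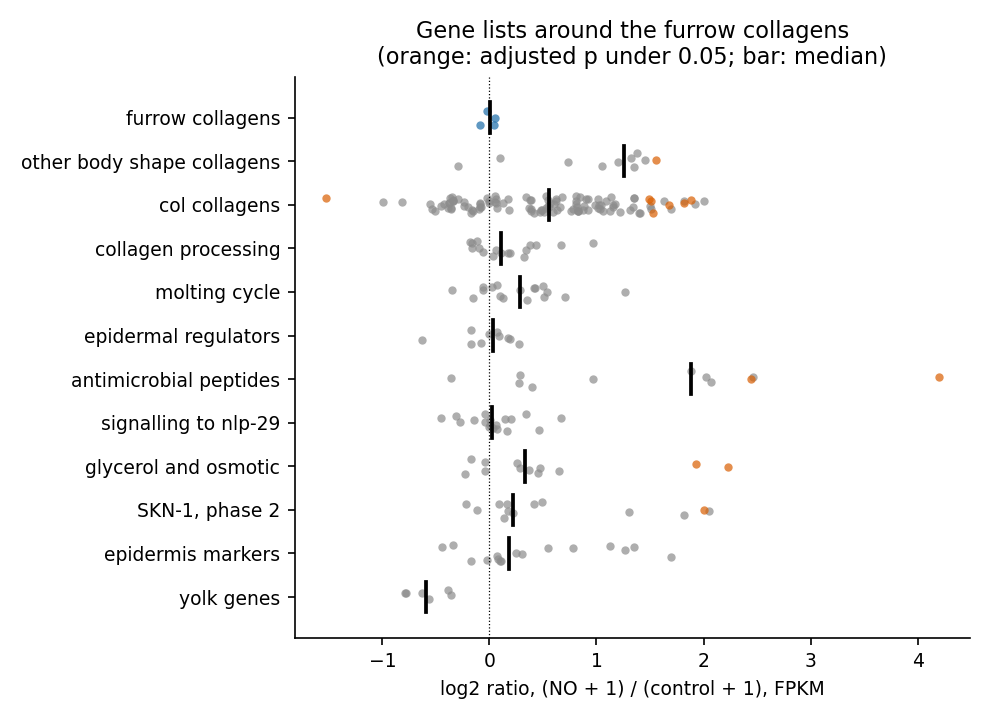
Log2 ratio, (NO + 1) over (control + 1) in FPKM (horizontal axis), for loci averaging 1 FPKM or more in 12 lists, each point 1 locus, blue for furrow collagens, orange where the deposited adjusted p is under 0.05, with a bar at each median. The 4 furrow collagens cluster around 0.01, the other body shape collagens have a median of 1.26 and the antimicrobial peptides one of 1.88, which is 0.97 among their loci averaging 10 FPKM or more.

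Since furrow collagen transcripts are known to cycle with the molts, markers of stage are given beside them. The adult cuticle collagen gene col-19 was at 2294 FPKM in control and 1808 FPKM in NO in the deposited table, in samples labelled as L4. All 6 yolk protein genes, which are made in adult intestine, were abundant, none at 0, and their levels summed to 11844 FPKM in control against 8417 FPKM in NO. All 6 had a lower value in NO, with a median log2 ratio of -0.59, 3 at an unadjusted p below 0.05 and 0 called. vit-4 stood at 1248 and 723 FPKM (unadjusted p = 0.00978), vit-3 at 1150 and 669 FPKM, vit-5 at 1823 and 1235 FPKM and vit-1 at 643 and 416 FPKM, all deposited values. A difference in developmental stage between the conditions and its part in the collagen values was not tested.

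Markers of tissues gave 0 calls in each list, against 0.399% of all loci. With a share this low, a count of 0 in lists of this size says nothing particular about them. All 20 epidermis markers were in the table, none at 0, with summed levels of 3365 FPKM in control and 3265 FPKM in NO. Of these sums, col-19 alone held 2294 and 1808 FPKM, so they mostly follow that gene and not the other markers. Of the 20 markers, 16 had a higher value in NO, 4 at an unadjusted p below 0.05, against 2.75% of all loci. The markers dpy-7, col-10, col-12 and col-19 are shared with the collagens above. The largest ratios among them were those of wrt-4, at 2.03 and 6.31 FPKM, grl-7, at 0.664 and 4.39 FPKM, grl-21, at 36.2 and 93.8 FPKM, and col-10, at 105 and 230 FPKM in the deposited table. Summed levels in control and NO were 1622 and 1684 FPKM for 9 intestine markers, 6140 and 6136 FPKM for 10 muscle markers, and 493 and 472 FPKM for 12 neuron markers. For 16 germline and sperm markers they were 4968 and 4295 FPKM, with 12 of 16 lower in NO and a median log2 ratio of -0.11. The median control level of these 16 was 242 FPKM. When all loci averaging 1 FPKM or more were split into 10 bins by mean level, the highest bin, above 129 FPKM, had a median of -0.14. The germline value thus lay near that of abundant loci in general. In RNA of whole worms, fewer cells of a type and less RNA per cell cannot be told apart.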

How the data were processed

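The members and gene lists were chosen with earlier results of these data known. Reads were processed with TopHat2 2.0.2, Cufflinks 2.0.5 and R 2.15.2, per the submitters' processing notes. Their settings, the annotation and the genome build: not given in the sources used here; coordinates are left out. The authors deposited 1 table with a control and an NO value per locus, taken as FPKM from its layout since the unit is not named. The deposited fold is their ratio, which held within 0.1 percent for the 15621 loci above 0 in both conditions. The deposited test statistic is a score of opposite sign to the fold, and the deposited p-value matched its normal tail for the same 15621 loci. The deposited log2 fold divided by that score gave the SE, and 95% intervals are normal. Calls used the deposited adjusted p at 0.05 over all loci. No test was added, since libraries had been combined, so edgeR could not be used. Log2 ratios used 1 FPKM added to each condition and a minimum mean of 1 FPKM. All control levels summed to 1355746 FPKM and all NO levels to 1284083 FPKM. Of 16562 loci, 1231 join several genes. Names were matched by symbol, or by sequence name through a RefSeq gene table (assembly WBcel235), also used for chromosomes and gene order. Named genes were all members, called genes and the largest log2 ratios, up to 4 per list, all other body shape collagens, 4 reporters (nlp-29, gpdh-1, hmit-1.1, gst-4), neighbours and the 5 nearest loci. Others, among them nas-37, col-19, col-43, col-174 and col-177, were picked after their values were seen. A simulation drew log2 folds from the implied SEs, so recovery of the SE and interval coverage were fixed by its construction. It is therefore no check of the deposited errors or of the intervals given here. Analysis used Python 3.11.15, pandas 2.3.3 and scipy 1.17.1.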

Additional observations from a re-analysis of the deposited data

How the results depend on the processing

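The count of 0 furrow collagen calls was the same at adjusted p thresholds of 0.01 and 0.1, at an unadjusted p below 0.05, and after re-adjustment over loci averaging 1 FPKM or more. The median log2 ratio of the furrow loci, 0.01, ranged from -0.10 to 0.05 over other pseudocounts, no minimum mean and both centrings, always within the implied errors. Centred on the median of all loci, dpy-2 went from -0.02 to 0.02. Centred on loci of like abundance, dpy-8 went to -0.08 and dpy-10 to -0.05, so the sign of these 3 depends on the centring. The signs of dpy-9 and the joined dpy-7 locus were kept. Their 95% intervals of the log2 fold, -1.74 to 1.49 and -1.19 to 2.70, also cross 0, so no furrow locus has a settled direction. No furrow locus reached a mean of 10 FPKM, so that alternative gave no value. For the other lists, each was also described with no minimum mean, a minimum of 10 FPKM and without joined loci, with the same number of calls in each list. At 10 FPKM, where fewer loci remain, the median fell below 0 for molting cycle genes (0.29 to -0.35, on 1 locus), epidermal regulators (0.04 to -0.17, on 5) and muscle markers (0.06 to -0.01, on 9, and the same -0.01 without joined loci). The antimicrobial peptides went from 1.88 to 0.97 there and to 1.42 with no minimum, and the epidermis markers from 0.18 to 0.08 and, without joined loci, 0.30. Collagen processing (0.06) and intestine markers (0.03) were also over 1.5 times lower at 10 FPKM, from 0.11 and 0.10, as was signalling to nlp-29 (0.00 from 0.02), and collagen processing was 0.17 and that signalling 0.04 without joined loci. Leaving out each library could not be done, because the deposited table has 1 value per condition. No paired analysis was possible because the deposited columns combine the 2 libraries of each condition. The depth of the libraries is unknown, and precision at these low levels is limited to the implied SEs.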

Other observations

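The nearest gene in the table on each side of a furrow collagen, in the gene order of the reference, gave no call. Beside dpy-10 and dpy-2, which lie near each other with 4 genes between them that were not analysed here, stood rpy-1, at 6.80 and 8.57 FPKM in control and NO, and T14B4.5, at 6.77 and 4.94 FPKM, values of the authors' deposited table. Around dpy-9 the levels were far higher than that of dpy-9 itself, 30.1 and 31.9 FPKM for R02D3.8 and 69.6 and 56.7 FPKM for pqbp-1.1 in the deposited table. Beside dpy-8 were tbc-7, at 13.2 and 13.9 FPKM, and C31H2.3, at 0.213 and 0.489 FPKM. Beside the joined dpy-7 locus were the collagen gene col-174, at 0.917 and 2.07 FPKM, and the noncoding gene F46C8.10, at 11.1 and 4.71 FPKM with an implied SE of 5.45. The table neighbours of dpy-3 were npax-2, at 0.093 and 0.574 FPKM, and F53B1.15, listed at 0 in control and 1.40 FPKM in NO.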
